A study of Mus musculus with 4 samples.

Results

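The data were 1792 ATAC-seq peaks at and beside the centromeres of the 22 autosomes, from HEK293 cells. They were chosen by position alone: a peak of the deposited list was taken when it overlapped the centromeric interval of its chromosome in GRCh38, widened by 0.5 Mb on each side. The list holds 48751 peaks, of which the pericentromeric peaks made up 3.68% (95% Wilson interval 3.51% to 3.85%). Of the 1792 peaks, 1572 lay inside the intervals, which cover 86.9 Mb, and 220 lay in the flanks of 0.5 Mb, which cover 22 Mb. The position of a peak sets its membership, and its width, depth and enrichment do not enter the rule. The rule itself was set with earlier results of these data known. The intervals were used as given and were not compared with a sequence.

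HEK293 is an established human cell line from embryonic kidney, and in ATAC-seq a transposase, Tn5, inserts adapters where DNA is accessible. The list was called on 4 merged libraries. All 4 came from cells transfected for 6 h with 1 μg/mL of a plasmid for a dCas9 fused to HaloTag7 together with 25 nM of a TRAFTAC, an oligonucleotide chimera meant to bring a transcription factor to the degradation machinery. The design states that all cells then received TNF-α (5 ng/mL), an activator of NFkB, and the PROTAC HP14 (25 μM), which binds the HaloTag, for 19 h. In all 4 samples the cells were also exposed to DNase (200 units/mL) during the last 30 min of culture. In 2 libraries the TRAFTAC carried the NFkB motif and in 2 it was scrambled. The treatment protocol of the samples also names DMSO as an alternative to HP14 without saying which sample received it. No column belongs to a single library, so the TRAFTACs could not be compared, there is no replicate error, and no test between groups was run. By their labels the samples are from mouse, but 109 pericentromeric peaks lie on chromosomes 20, 21 and 22, which the mouse does not have.

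Human centromeres are built on alpha satellite, a tandem repeat that is arranged in higher-order arrays and carries the histone variant CENP-A at the active kinetochore site. The arrays are flanked by pericentromeric heterochromatin with other satellites and with segmental duplications, and this chromatin is generally compact. Some arrays are shared between chromosomes, above all the closely similar alpha satellite of chromosomes 1, 5 and 19 and that of the pairs 13 and 21 and 14 and 22. In GRCh38 many centromeres are filled with modelled arrays, in which the order of the repeat copies does not stand for their real order. A read from such an array can match many places equally well, and how such reads were treated is not given in the sources used here. No sequence is shown for these peaks, since a GRCh38 sequence was not used here.

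Pooled over the autosomes, the pericentromeric regions were about as rich in peaks as the rest, but single chromosomes lay far to either side. The widened intervals held 16.5 peaks per Mb (95% Poisson interval 15.7 to 17.2), and the remaining autosomal sequence held 16.2 per Mb (16.002 to 16.3), where each chromosome was measured up to its last peak and assembly gaps were not subtracted. Inside the intervals the density was 18.1 peaks per Mb (17.2 to 19.0). In the 0.5 Mb flanks it was 10.0 per Mb (8.72 to 11.4), and from 0.5 to 5 Mb outside the intervals it was 13.9 per Mb (13.4 to 14.5). Stretches without a peak were not subtracted from these lengths, so the last value counts some wholly empty zones. Above the widened interval, the next peak lay 17585 kb away on chromosome 1, 14591 kb on chromosome 9 and 7486 kb on chromosome 16. No peak was listed below the widened intervals of chromosomes 13, 14 and 15. By chromosome, the density inside the interval was above that of the remaining chromosome on 8 autosomes and below it on 14. Some differences lay within counting error. Chromosome 16 held 21.6 per Mb inside (16.7 to 27.4) against 21.3, and chromosome 19 held 60.5 (53.0 to 68.7) against 54.8. On the lower side, chromosome 2 held 10.5 (7.61 to 14.1) against 12.9. The density inside ranged from 0.82 peaks per Mb on chromosome 18 to 69.7 on chromosome 1, and the median autosome held 9.93 per Mb in the widened interval. Here and below, intervals account for counting error alone and treat neighbouring peaks as independent, which they are not.

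**Figure D1:**
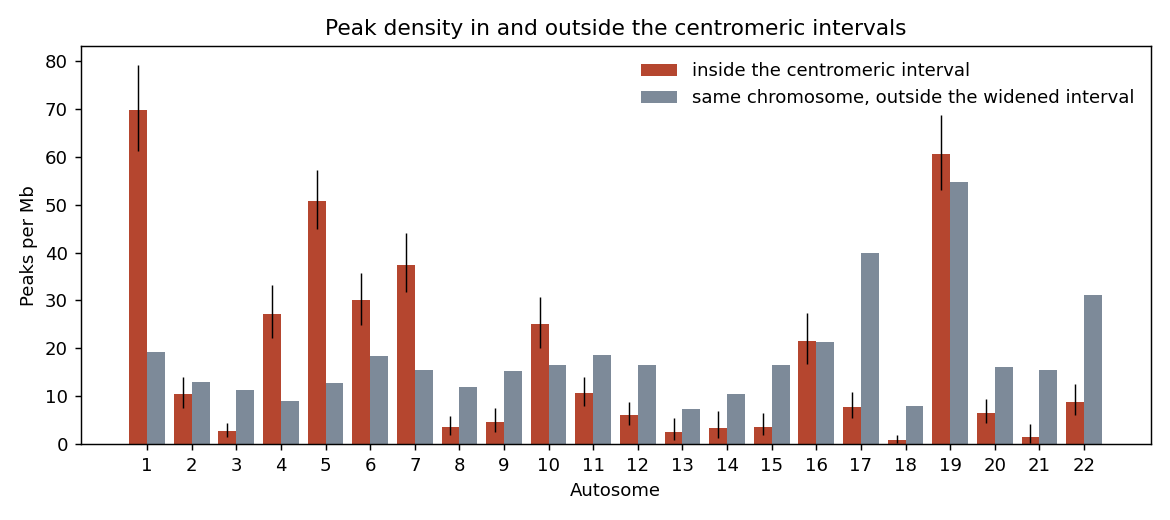
Peaks per Mb for each autosome, inside the centromeric interval (red, with 95% Poisson intervals of the count) and on the same chromosome outside the widened interval (grey). The red bars of chromosomes 1, 5 and 19 reach 69.7, 50.8 and 60.5 peaks per Mb, and those of 14 autosomes stay below the grey bar beside them.

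Chromosomes 1, 5 and 19 together held 768 of the 1792 peaks, or 42.9% (Wilson interval 40.6% to 45.2%), although their intervals are 14.5% of the interval length. Chromosome 1 (121.7 to 125.1 Mb) held 245 peaks, chromosome 5 (46.1 to 51.4 Mb) 270 and chromosome 19 (24.2 to 28.1 Mb) 253. The comparison with the remaining chromosome differed between them. Inside the interval, the density was 3.61 times that of the rest of the chromosome on chromosome 1 and 3.99 times on chromosome 5, but only 1.11 times on chromosome 19, whose remaining sequence held 54.8 peaks per Mb. Without these 3 chromosomes, 1024 peaks remained, at 10.98 per Mb of widened interval.

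The peaks of the crowded intervals lay in compact blocks rather than over the whole interval. A block was taken as at least 20 peaks inside an interval with at most 100 kb between neighbours, a definition set after the values were seen. The definition was applied only inside the intervals, so how often the rest of the autosomes would meet it is not known. It picks crowded stretches, so a higher density in the blocks than between them follows in part from the definition. It gave 9 blocks on 8 chromosomes, which held 1186 peaks (66.2% of the pericentromeric peaks) in 16.4% of the interval length. With a limit of 50 kb there were 13 blocks with 922 peaks, and with 200 kb there were 11 blocks with 1304 peaks. Outside the blocks the intervals were sparse, with 386 peaks in the remaining length.

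The blocks of chromosomes 1, 5 and 19 had similar lengths, densities and median depths. On chromosome 1 the block ran from 122523726 to 124871939 and held 230 peaks in 2348 kb. On chromosome 5 it ran from 47323973 to 49667333 and held 261 peaks in 2343 kb. On chromosome 19 it ran from 24924911 to 27190063 and held 231 peaks in 2265 kb. These are densities of 97.9, 111 and 102 peaks per Mb, with median gaps between neighbours of 5152, 4910.5 and 5695.5 bp. The summit pileup, the number of fragments over the summit as recovered from the listed values, had a median of 30 in each of these 3 blocks. The highest pileups differed, with 118 fragments on chromosome 1, 852 on chromosome 5 and 127 on chromosome 19, as did the widest peaks, with 2513, 5045 and 2350 bp. The median fold enrichment of the blocks, the summit over the local background as the peak caller computed it, was 4.24 in each. The peaks covered 6.34%, 7.88% and 6.84% of the block. All 3 blocks were more crowded towards the long arm. The part of the block above its midpoint held 140 of 230 peaks on chromosome 1 (60.9%, Wilson interval 54.4% to 66.9%), 167 of 261 on chromosome 5 (64.0%, 58.0% to 69.6%) and 142 of 231 on chromosome 19 (61.5%, 55.1% to 67.5%). These intervals exclude an even split, but only for counting error of independent peaks.

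Chromosomes 6, 7, 10 and 16 had 1 block each, and for these the intervals of the same share include an even split. The share of peaks above the midpoint was 50.4% on chromosome 6 (Wilson interval 41.6% to 59.2%), 47.3% on chromosome 7 (39.5% to 55.3%), 56.2% on chromosome 10 (45.3% to 66.6%) and 43.5% on chromosome 16 (31.9% to 55.9%). In the 2 blocks of chromosome 4, described below, it was 53.6% (35.8% to 70.5%) in the first and 32.0% (17.2% to 51.6%) in the second. The intervals of chromosome 10 and of the first block of chromosome 4 also include the shares of chromosomes 1, 5 and 19. The difference from these chromosomes was not tested. On chromosome 6 the block held 119 peaks from 58574784 to 59826829 and was followed by 2.02 Mb without a peak. On chromosome 7 the block held 150 peaks over 2599 kb, the longest of the 9, with 57.7 peaks per Mb and a median summit pileup of 24. The block of chromosome 16, from 36383920 to 37973371, was the weakest of the 9 by depth. Its 62 peaks had a median pileup of 20 fragments and a highest pileup of 31, and their fold enrichment did not exceed 4.37. The remaining chromosome 16 had a median pileup of 67 fragments.

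The block of chromosome 10 held wide peaks with little depth. From 39937256 to 40965851 it had 80 peaks with a median width of 738.5 bp, against 591 bp over the rest of the chromosome, while its highest summit pileup was 68 fragments and its median 24. The rest of the chromosome had a median pileup of 52. Of the 115 pericentromeric peaks of chromosome 10, 17 were at least 2000 bp wide (14.8%). The widest of them, 5921 bp from 40081103 to 40087023, had a summit pileup of 41 fragments and was enriched 5.74-fold.

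Chromosome 4 had 2 blocks, which stood apart from the other 7 by a raised local background. In the first, from 49091400 to 49330788, 28 peaks were packed into 239 kb, or 117 per Mb, the highest density of the 9 blocks. Only 1 of these 28 peaks had the genome-wide background. The block contains the widest pericentromeric peak, 8448 bp from 49091400 to 49099847, with 160 fragments at its summit over a background of 34.98. In the second block, from 49512415 to 50134602, 9 of 25 peaks had the genome-wide background, and 1 peak (49709258 to 49711898) reached 1445 fragments over a background of 93.8.

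**Figure D2:**
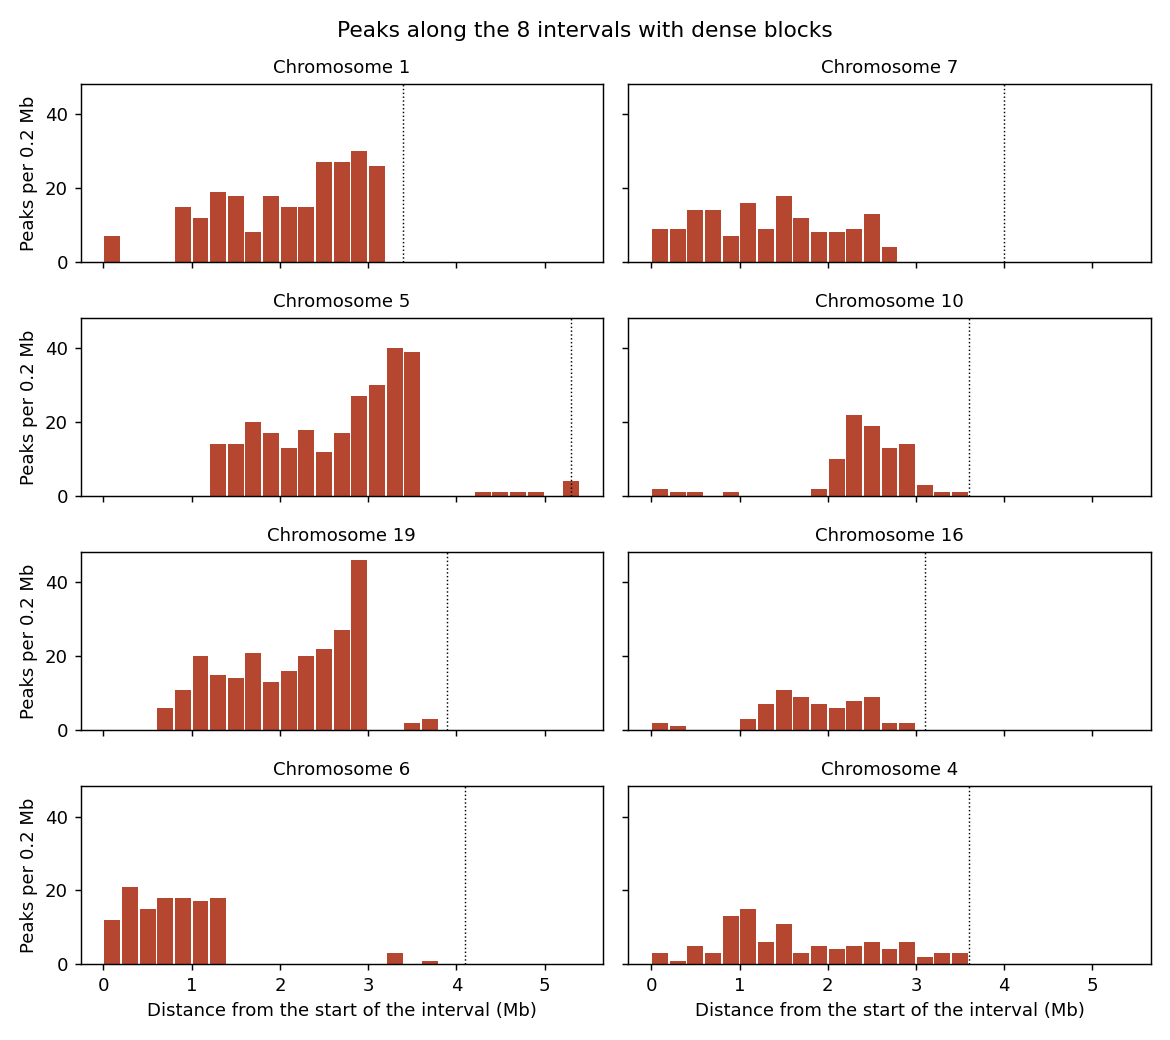
Number of peaks inside the interval per 0.2 Mb for the 8 chromosomes with dense blocks, against the distance from the start of the interval in Mb, with the end of the interval as a dotted line (the last bin can be shorter than 0.2 Mb). The bars of chromosomes 1, 5 and 19 are higher towards the right end of the block, where the upper part holds 140, 167 and 142 peaks, and those of chromosome 6 stop abruptly before 2.02 Mb without a peak.

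The remaining 14 chromosomes held from 3 peaks (chromosome 21) to 51 peaks (chromosome 11) inside their intervals. The acrocentric chromosomes 13, 14, 15, 21 and 22, whose short arms carry the ribosomal DNA, held 90 pericentromeric peaks, or 5.02% (Wilson interval 4.10% to 6.13%), with 15.3% of the interval length. Chromosome 13 held 8, chromosome 14 held 7, chromosome 15 held 13, chromosome 21 held 10 and chromosome 22 held 52. Inside the intervals, the pair 13 and 21 held 6 and 3 peaks, and the pair 14 and 22 held 7 and 33. On chromosome 14 the 7 peaks had summit pileups of 17 to 29 fragments and fold enrichments of 2.46 to 4.10, and all lay at the genome-wide background. On chromosome 21 only 3 peaks lay inside the interval, with 16, 20 and 23 fragments, and the other 7 lay in the flank on the short-arm side.

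Chromosome 18 had the emptiest interval, with no peak over 5.71 Mb, or 93.6% of its length. Its first peak inside the interval began at 21111176. The 11 peaks at its upper end had a median fold enrichment of 10.4 and a median pileup of 140 fragments, higher than the 6.02 and 52 of the rest of the chromosome, and they lie at the long-arm edge. On chromosome 15 the first 2.00 Mb of the interval held no peak. On chromosome 3 the longest stretch without a peak was 1.92 Mb, and it ended at the deepest peak inside any interval, from 93470358 to 93470806, with 2358 fragments. Whether these stretches are gaps in the assembly was not examined.

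In depth, the pericentromeric peaks were mostly weak. Their median summit pileup was 30 fragments (95% interval from order statistics 29 to 31, quartiles 22 and 49) over the 4 libraries together, an average of 7.50 per library, and counting error alone is 18.3% on such a pileup. The other autosomal peaks had a median of 58 (57 to 59). The median was lower at the centromere on 21 of 22 autosomes, with chromosome 18 as the exception. The median fold enrichment was 4.10 (3.96 to 4.21), against 5.74 (5.74 to 5.81) for the other autosomal peaks, and was lower at the centromere on 18 of 22 autosomes. The exceptions were chromosomes 8, 17, 18 and 22. The median −log10 q-value was 8.82 (8.46 to 9.50) against 24.7 (24.02 to 25.0). A value of at least 5 was reached by 86.5% of all peaks and by 1309 pericentromeric peaks (73.0%, Wilson interval 70.9% to 75.1%).

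The lower depth belonged to the intervals themselves more than to the flanks. Inside the intervals the median pileup was 29 fragments (28 to 30), and in the flanks it was 50 (42 to 57). From 0.5 to 5 Mb outside, it was 62 (58 to 67), and over the rest of the autosomes 58 (57 to 58). Fold enrichment followed the same order, with medians of 3.96 (3.83 to 4.10) inside, 5.23 (4.47 to 5.60) in the flanks, 5.88 (5.64 to 6.11) from 0.5 to 5 Mb outside and 5.74 (5.73 to 5.79) beyond. Peaks within the dense blocks had a median pileup of 28 (27 to 29), and the other peaks inside the intervals 35 (31 to 38). At the edges of the widened intervals, no peak crossed the boundary. The nearest peak inside lay within 50 kb of the boundary at 12 of the 44 edges, with fold enrichments of 2.87 to 18.1, and the nearest peak outside at 15 of the 41 edges that have a peak beyond them, with 3.28 to 16.5.

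Weak peaks were common near the centromeres, but some of the most enriched peaks of the list were there too. A fold enrichment of at least 20 was reached by 0.0759% of all peaks, or 37 peaks. Of the pericentromeric peaks, 12 of 1792 reached it, or 0.670% (Wilson interval 0.383% to 1.17%), and of the other autosomal peaks 16 of 44660, or 0.0358% (0.0221% to 0.0582%). The rest of the 37 lay outside the autosomes, where the share was not computed. Among the 10 most enriched peaks of the list, 5 were pericentromeric. The 12 peaks lay on 5 chromosomes, with 6 on chromosome 17, 2 on chromosome 7, 2 on chromosome 11, 1 on chromosome 3 and 1 on chromosome 4. On 17 autosomes no pericentromeric peak reached 20. A summit pileup of at least 100 fragments was the reverse, with 32.9% of all peaks, 10.1% of the pericentromeric peaks (8.79% to 11.6%) and 33.9% of the other autosomal peaks (33.4% to 34.3%). Among the deepest pericentromeric peaks were also 2 on chromosome 2, from 95991488 to 95992916 with 631 fragments and from 96265152 to 96266598 with 563, and 1 on chromosome 19, from 27793102 to 27794535, with 642 fragments over a background of 53.7.

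Chromosome 17 carried the extremes. The most enriched peak of the whole list lay in its lower flank, from 22521334 to 22521593, enriched 40.2-fold, with 2704 fragments over a background of 66.3. It was only 260 bp wide. Of the 175 peaks of the list with at least 1000 fragments, the median width was 1303 bp and 4 were narrower than 300 bp. Its −log10 q-value of 3208 was the second highest of the list. Inside the interval (22.7 to 27.4 Mb), the peak from 25920024 to 25921900 had a fold enrichment of 33.1 with 241 fragments, and the peak from 26603525 to 26604627 had 29.8 with 616 fragments. Others were those from 23015883 to 23016718 (fold enrichment 26.0), from 23068512 to 23069254 (23.2) and from 26619238 to 26620315 (22.6). The peaks of chromosome 17 were therefore few and in part very strong. The interval held 7.87 peaks per Mb against 39.9 on the rest of the chromosome, and the pericentromeric peaks had a median pileup of 55.5 against 63 fragments.

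Outside chromosome 17, the strongest enrichment was on chromosome 4, where the peak from 50676613 to 50677445 had a fold enrichment of 33.5 with 419 fragments. On chromosome 11, the peaks from 51756888 to 51760301 (fold enrichment 24.7, 180 fragments) and from 51142186 to 51144837 (21.6, 157 fragments) were 3414 and 2652 bp wide. On chromosome 7, the peaks from 60309245 to 60312129 (24.1, 175 fragments) and from 59250234 to 59253131 (20.6, 150 fragments) were 2885 and 2898 bp wide. These 4 peaks combine a width above 2000 bp with a background at the genome-wide value. The peak of chromosome 3 named above, with a fold enrichment of 20.5, was by contrast 449 bp wide over the highest pericentromeric background, 114 fragments.

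**Figure D3:**
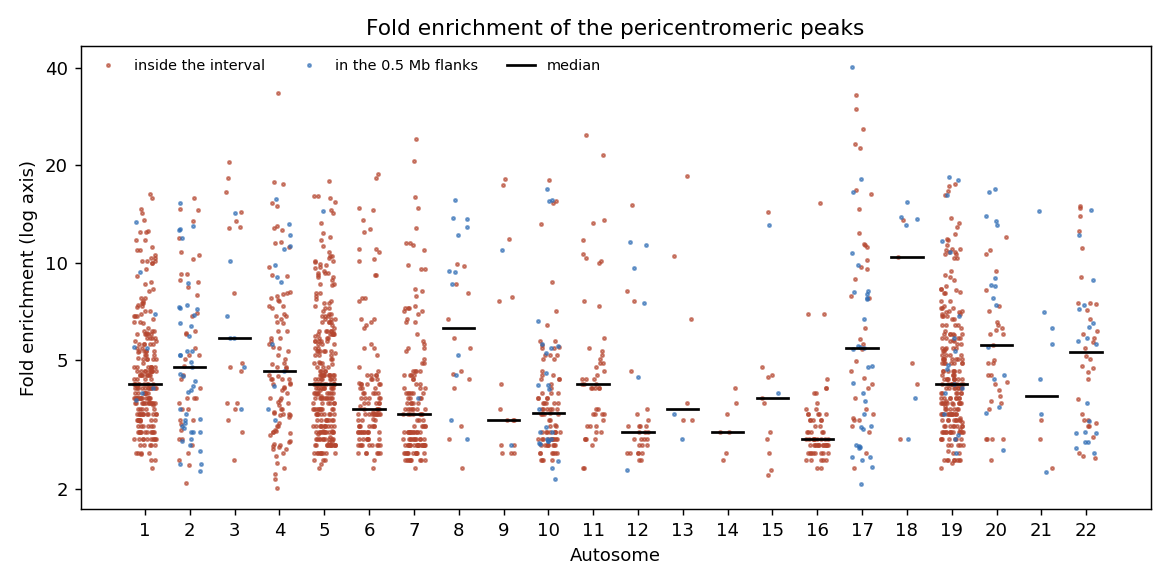
Fold enrichment of each pericentromeric peak (log axis) by autosome, inside the interval (red) and in the 0.5 Mb flanks (blue), with the median over both as a black line. The medians lie between 2.87 on chromosome 16 and 10.4 on chromosome 18, and the highest points are on chromosome 17, up to 40.2, and on chromosome 4, at 33.5.

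The local background, the number of fragments expected at a summit from its surroundings, was at its lowest value for most pericentromeric peaks. This genome-wide value was 6.32 fragments, and a background within 0.001 of it was found for 33.8% of all peaks. Of the pericentromeric peaks, 1391 of 1792 had it (77.6%, Wilson interval 75.6% to 79.5%), and of the other autosomal peaks 14365 of 44660 (32.2%, 31.7% to 32.6%). The share was higher at the centromere on 20 of 22 autosomes, and lower on chromosomes 2 and 18. On chromosomes 7, 11 and 14 it was 100%, with 151, 51 and 7 peaks. Inside the intervals it was 84.0% (82.1% to 85.7%), and in the flanks 32.3% (26.4% to 38.7%), close to the 32.8% (31.0% to 34.5%) from 0.5 to 5 Mb outside.

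The share was also higher inside the intervals at like pileups. In the comparisons by pileup, the other autosomal peaks are all those outside the intervals, including the 220 pericentromeric peaks of the flanks. Among peaks with 16 to 24 fragments, 96.7% (94.9% to 97.9%) of those inside the intervals and 72.0% (70.8% to 73.2%) of the other autosomal peaks had the genome-wide background. From 25 to 49 fragments the shares were 87.8% (85.1% to 90.0%) and 56.9% (56.1% to 57.7%), and from 50 to 99 fragments 72.4% (66.0% to 78.0%) and 23.3% (22.5% to 24.2%). At 100 fragments or more, 27 of 118 peaks inside the intervals had it (22.9%, 16.2% to 31.2%) and 45 of 15189 others (0.296%, 0.222% to 0.396%).

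A raised background was rare. At least 10 times the genome-wide value was found for 1.6% of all peaks, for 9 pericentromeric peaks (0.502%, Wilson interval 0.264% to 0.952%) and for 601 of the other autosomal peaks (1.35%, 1.24% to 1.46%). The 9 peaks lay on chromosomes 1, 3, 4, 5 and 17. On chromosome 5, 2 of them lay side by side at the upper end of the dense block, from 49599490 to 49602897, with 332 and 852 fragments over a background of 83.5 each, and another, from 49656783 to 49661827, had 762 over 78.2. On chromosome 17, 2 lay from 26880936 to 26885874, with 378 and 480 fragments over 75.3 and 75.1. On chromosome 1 the peak from 125178879 to 125183123, in the upper flank, had 765 fragments over 80.9.

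The pericentromeric peaks were narrower as a whole, while those inside the intervals were wider at a given summit pileup. Their median width was 471.5 bp (456 to 490) against 596 bp (591 to 601) for the other autosomal peaks, and it was smaller on 16 of 22 autosomes. Among peaks with 25 to 49 fragments at the summit, those inside the intervals had a median width of 470.5 bp (437 to 495). The autosomal peaks outside the intervals, flanks included, had 409 bp (405 to 414). From 50 to 99 fragments the medians were 743.5 bp (656 to 871) and 606 bp (599 to 613), and at 100 or more 1324.5 bp (1086 to 1450) and 1041 bp (1034 to 1048). These medians pool the autosomes. At like pileup the peaks inside the intervals also had a lower local background, and widths were not compared at like background. At like −log10 q-value the direction was mixed. From 5 to under 100, pericentromeric peaks had a median width of 513 bp and the other autosomal peaks 535 bp. Under 5 the medians were 327 and 306 bp, and from 100 on 1112 and 1098 bp. A width of at least 2000 bp was found for 1.8% of all peaks, for 74 pericentromeric peaks (4.13%, Wilson interval 3.30% to 5.15%) and for 748 other autosomal peaks (1.67%, 1.56% to 1.80%). Chromosomes 4, 5 and 10 carried 39 of the 74, 10 autosomes had none, and the median share over autosomes was 2.21%. Of the wide peaks, 36 of the 74 pericentromeric ones had the genome-wide background, and 17 of the 748 others. Fold enrichment at like pileups was higher inside the intervals from 50 fragments on. From 50 to 99 fragments the medians were 8.29 (7.93 to 8.88) and 7.05 (6.98 to 7.11), and at 100 or more 13.5 (12.5 to 14.6) and 11.03 (10.96 to 11.10). Fold enrichment, pileup and background are tied by the calculation, so this repeats the lower background in another form.

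**Figure D4:**
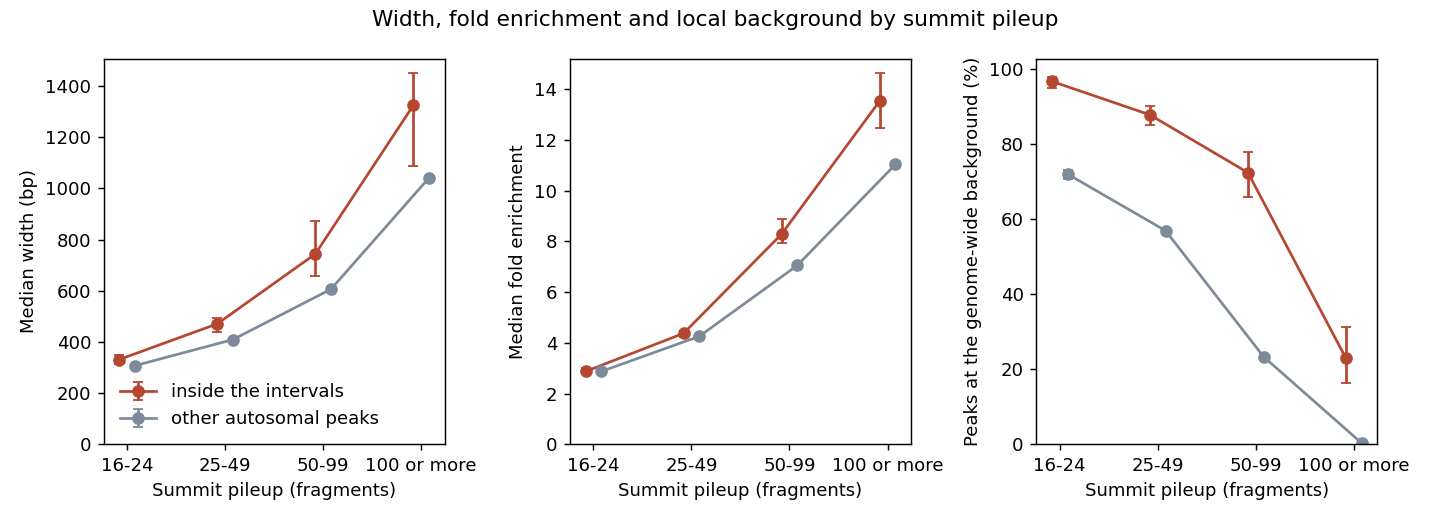
Median width in bp, median fold enrichment and share of peaks at the genome-wide background in percent, by summit pileup in fragments, for peaks inside the intervals (red) and the other autosomal peaks, flanks included (grey), with 95% intervals. At 100 fragments or more the medians are 1324.5 and 1041 bp, and 22.9% against 0.296% of the peaks have the genome-wide background.

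Pooled over the autosomes, pericentromeric peaks stood closer together than others, but not on most single chromosomes. The distance to the nearest neighbouring peak had a pooled median of 4138 bp (3834 to 4702) against 9593.5 bp (9454 to 9729) for the other autosomal peaks. Compared with the rest of the same chromosome, the median distance was shorter on 10 autosomes and longer on 12, from 1212 bp on chromosome 10 to 109738 bp on chromosome 13. A neighbour within 10 kb was found for 1262 pericentromeric peaks (70.4%) and for 22969 others (51.4%). In the flanks the median distance was 10628 bp (7166 to 12397). Of the peaks in the dense blocks, 88.6% (86.7% to 90.3%) had the genome-wide background, with the blocks of chromosome 4 as exceptions (1 of 28 and 9 of 25 peaks). The numbers that the peak caller gave to the peaks ran on without a gap within each widened interval, with 0 missing. The list therefore shows no peak dropped after calling between the first and last listed peak of a widened interval.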

How the data were processed

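Each ATAC-seq library was prepared from 50000 HEK293 cells and amplified over 8 PCR cycles. According to the methods and the submitters' processing notes, the authors trimmed reads with Trimmomatic, aligned them with Bowtie2 (the notes name GRCh38.p10), marked duplicated fragments (Picard) and ran MACS2 on paired ends. They also report a filter against a blacklist. The deposited list shows no trace of that filter in the widened intervals, where 0 of the caller's peak numbers were missing. Whether the filter was applied to this list was not tested. The authors deposited 1 list, labelled as called on the merged samples, with each peak's position, score (not used), fold enrichment as a linear ratio, and −log10 p-value and q-value. Columns of single samples number 0, and the depth of each library is unknown.

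Positions were made 1-based. Summit pileup and local background were recovered as the whole number of fragments that gives both the listed fold (pseudocount 1) and the listed −log10 p-value under a Poisson distribution, within 0.001. For 2000 simulated peaks drawn over all chromosomes, 99.8% of pileups were returned. Medians carry order-statistic intervals, shares Wilson intervals and densities Poisson intervals (95%), for counting error only. Python 3.11.15, numpy 2.4.6, pandas 2.3.3, scipy 1.17.1 and matplotlib 3.10.9 were used.

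The peaks described singly were the 10 highest by fold enrichment, pileup and background, the widest and the most significant one. Other single peaks and the chromosome groups were chosen after their values were seen. The members and rules were chosen with earlier results of these data known. Genes, GC content and motifs were planned but not analysed, because no sequence or annotation of GRCh38 was used here. The genes of the list set for this purpose are therefore not reported.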

Additional observations from a re-analysis of the deposited data

How the results depend on the processing

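Leaving out chromosomes 1, 5 and 19 and the limits of the blocks were chosen after seeing the data, as were all alternatives for the shares at the genome-wide background, with a fold enrichment of at least 20 and of at least 2000 bp. The number of pericentromeric peaks stayed within 1.5 times 1792 except without chromosomes 1, 5 and 19, with 1024. When peaks with a −log10 q-value under 5 were left out, the median width was 565 bp, the fold enrichment 4.78, the pileup 37 and the density 12.02 per Mb, while the share at the genome-wide background was 73.6% and that of at least 2000 bp 5.58%. Without chromosomes 1, 5 and 19, the median width was 500 bp, the fold enrichment 3.83, the density 10.98 per Mb, the share at the genome-wide background 70.6% and that with a fold enrichment of at least 20 1.17%. Without the widening, the density was 18.1 per Mb and the share at the genome-wide background 84.0%. With 1 Mb per side they were 15.5 per Mb and 73.0%, and the fold enrichment was 4.24. With each autosome weighted equally (the median over autosomes), the fold enrichment was 4.24, the density 9.93 per Mb, the share at the genome-wide background 81.2% and that of at least 2000 bp 2.21%, and the shares with a background 10 times the genome-wide value or more and with a fold enrichment of at least 20 were both 0. Blocks of at least 10 peaks numbered 15, with 1265 peaks. The cause of these moves was not tested, except that the q-value removes weak peaks by construction.

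Sequence windows were not run, because a sequence of GRCh38 was not used here, and single replicates could not be left out, since no column belongs to a library. No paired analysis was possible because all peaks were called on merged libraries. The smallest summit pileup, 16 fragments, limits how weak a pericentromeric peak could be seen.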
